A study of Mus musculus with 2 samples.

Results

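The RNA of 10 genes of the alpha- and beta-tubulin families was examined in mouse embryonic fibroblasts (MEFs), namely Tuba1a, Tuba1b, Tuba1c, Tuba3a, Tuba3b, Tuba4a, Tubb2a, Tubb2b, Tubb3 and Tubb6. They were taken by gene name from the deposited expression table. All 10 were found as 1 entry each among its 29126 entries. The list was drawn up with their values in this comparison known, so the levels and changes of these genes are a description and carry no test. Strand-specific mRNA-seq was performed once for each genotype, Dnmt1+/+ and Dnmt1-/-. Dnmt1 encodes the maintenance DNA methyltransferase, and the cells called Dnmt1-/- carry 2 copies of its n allele, which is hypomorphic rather than a full deletion. Cells of both genotypes are also homozygous null for trp53, the gene for p53, and the strain and the age of the embryos are not given in the sources used here. Because each genotype has 1 library, effects of genotype, culture and library cannot be told apart, and no difference has a replicate check. In such bulk RNA, more cells with a transcript and more transcript per cell cannot be told apart either.

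Microtubules are hollow polymers of a heterodimer of alpha- and beta-tubulin, and every dividing cell needs them for its spindle. Mammals carry several genes for each subunit. Their protein products, the isotypes, differ mostly in the acidic carboxy-terminal tail, which reaches out from the microtubule surface and carries most of its modifications. Tuba1a to Tuba1c and Tubb5 supply most proliferating cells, Tubb3 and Tubb2b are best known from neurons, and Tuba3a and Tuba3b from the testis. Cells also adjust the stability of tubulin mRNA to the amount of free tubulin, through recognition of the first residues of the nascent chain.

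As paralogs can share 50 bp reads, the sequences of the transcripts bear on every value that follows. The first 60 coding bases of the 3 alpha-tubulin genes that differed most between the libraries are shown, since they can be compared without gaps. They were read from the GENCODE transcripts of NCBIM37 (mm9), and capitals mark bases that differ from Tuba3b.
Tuba3b: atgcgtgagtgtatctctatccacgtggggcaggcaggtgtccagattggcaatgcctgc
Tuba3a: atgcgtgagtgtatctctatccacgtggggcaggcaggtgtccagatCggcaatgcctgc
Tuba4a: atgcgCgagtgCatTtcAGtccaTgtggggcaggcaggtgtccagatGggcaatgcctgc
In this stretch Tuba3a differed from Tuba3b at 1 base and Tuba4a at 7. The last 60 coding bases of Tuba3a and Tuba3b, which encode the carboxy-terminal tail, were identical.
Tuba3a and Tuba3b, last 60 coding bases: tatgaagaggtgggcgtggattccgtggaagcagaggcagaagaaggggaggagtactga

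Over the whole coding sequence Tuba3a and Tuba3b were 97.0% identical, with 41 of 1353 aligned positions different. Tuba1a and Tuba1b were 98.3% identical, and Tuba1b and Tuba1c 97.9%. Between the Tuba1 genes, the Tuba3 genes and Tuba4a, identity was between 82.4% and 85.2%. Among the beta-tubulins, Tubb2a and Tubb2b were 96.5% identical, whereas Tubb3 and Tubb6 were 85.7% identical.

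To ask which entries can be kept apart at this read length, every 50-base window of a transcript was looked for in the transcripts of other protein-coding genes. Of the 1598 windows of Tuba1a, 57.1% had an exact copy in another gene, as had 64.6% of the windows of Tuba1b and 59.96% of those of Tuba1c. All of these copies lay in the other members of the Tuba1 clade. If 2 mismatches to another tubulin were allowed, 21.7% of the windows of Tuba1a, 24.4% of Tuba1b and 34.4% of Tuba1c remained without a match. The levels of these 3 genes are therefore less certain one by one than as a sum. Tuba3a and Tuba3b shared 473 windows exactly, 32.4% and 27.4% of their windows respectively. Exact copies of 4 windows of Tuba8 were also found in these genes, and any window that either shared with Tuba8 was among the 473. At 2 mismatches 30.1% of the windows of Tuba3a and 40.4% of those of Tuba3b had no match in another tubulin. Tuba3a and the Tuba1 genes shared no window even at 2 mismatches. Tuba3b shared none exactly, and at 2 mismatches it shared 7 with Tuba1b and 4 with each of Tuba1a and Tuba1c. For Tuba4a 98.6%, for Tubb3 90.3% and for Tubb6 89.6% of the windows had no match within 2 mismatches in another tubulin. Tubb2a and Tubb2b, at 39.5% and 50.5%, were intermediate. Pseudogenes and introns were not included in this search.

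**Figure D1:**
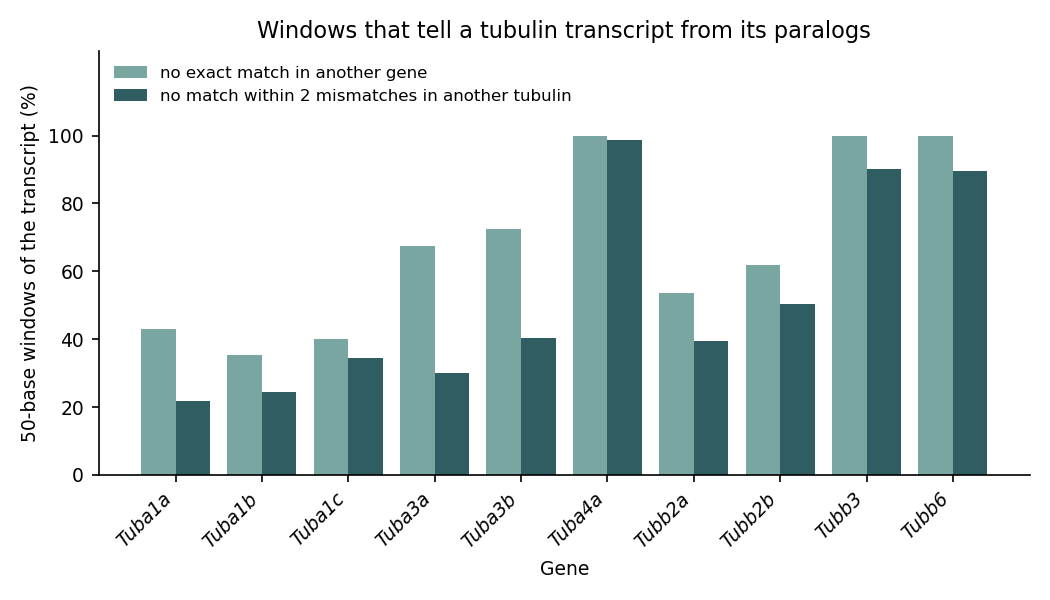
Percentage of the 50-base windows of each tubulin transcript (y axis) without an exact copy in another protein-coding gene (light bars) or without a match within 2 mismatches in another tubulin (dark bars), for each of the 10 genes (x axis). The dark bars stand between 21.7% and 34.4% for the Tuba1 genes and at 98.6% for Tuba4a.

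Expression is given as deposited, in RPKM, which scales the reads of a transcript by its length and by the mapped reads of the library, so that levels can be compared between genes. The change is the difference between the libraries, Dnmt1-/- minus Dnmt1+/+, of log2(RPKM + 0.1), a scale on which changes at low RPKM are understated. An entry was kept if Cuffdiff had given it status OK, if it had a symbol, and if either library reached 1 RPKM. This left 11244 genes, whose median log2 change was -0.14. All 10 tubulin genes passed, but Tuba3a and Tuba3b did so only through the Dnmt1-/- library. Dnmt1 itself went from 65.2 to 14.5 RPKM, where the Dnmt1+/+ library is always given first. Read counts were not used here, and the counting error of these values was not computed. Of 14 fibroblast markers examined, 13 passed the filter, with Vim at 2269 and 1873 RPKM and Col1a1 at 1448 and 898. Past 2-fold, against 8.47% of all genes kept higher and 10.9% lower, were 2 higher markers, S100a4 (290 and 1262 RPKM) and Pdgfra, and 4 lower ones, among them Thy1 (4.84 and 0.129), Postn (177 and 13.7) and Fn1 (664 and 235). Of these, Thy1 passed the filter only through the Dnmt1+/+ library. The sum over all 14 fibroblast markers was 7466 and 6008 RPKM, and their part in the tubulin values was not tested. None of 23 ubiquitously expressed genes found was listed at 0, and none was past 2-fold in either direction, with Eef2 at 1692 and 1224 RPKM.

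Of the 10 tubulin genes, 3 were higher in the Dnmt1-/- library by more than 2-fold, against 8.47% of all genes kept. None was more than 2-fold lower, against 10.9% of all genes kept. Since these genes were chosen from this comparison, nothing is read from these shares. The 3 higher genes were Tuba3a, Tuba3b and Tuba4a, and all are alpha-tubulins. The median log2 change of the 10 genes was 0.34, beside -0.14 for all genes kept, and 8 of the 10 lay above this all-gene median.

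The levels of the Tuba3 genes separated the libraries most. Tuba3b, on the plus strand of chromosome 6 with 5 exons between 145564277 and 145569999, was at 0.0368 RPKM in the Dnmt1+/+ library and at 85.5 in the other. Its log2 change of 9.29 was rank 4 by size of rise among the genes kept. Tuba3a, on the minus strand of the same chromosome with 5 exons between 125228292 and 125236060, went from 0.00555 to 33.7 RPKM, a log2 change of 8.32 with rank 12. Both genes thus went from close to 0 to a level above the median of the Dnmt1-/- library, which was 10.3 RPKM, and Tuba3b came to rank 806 of the 11244 genes by level. The size of these changes depends on the pseudocount, because the Dnmt1+/+ values lie below it. The change of Tuba3b was 6.38 with a pseudocount of 1 and 10.84 with 0.01, and that of Tuba3a 5.11 and 11.08, so that the order of the 2 genes turned with the smaller pseudocount. Summed, which depends little on how reads were divided between them, their RPKM was 0.0423 in Dnmt1+/+ and 119.2 in Dnmt1-/-. In the Dnmt1-/- library the RPKM of Tuba3b was 2.53 times that of Tuba3a. The part of read assignment in this ratio and in the single ranks was not tested, as these genes share 473 windows exactly. The low Dnmt1+/+ values stood beside a summed RPKM of 1534 for Tuba1a, Tuba1b and Tuba1c in the same library, and this sum was 1962 in Dnmt1-/-.

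Of the nearest named neighbours of the Tuba3 genes, Rassf8 and Ltbr were kept. Neither was past 2-fold, against 8.47% of all genes kept higher and 10.9% lower. Ifltd1 and 4930417O13Rik, both with status NOTEST, were not kept, and nothing is read from their changes. On either side of Tuba3b the nearest named entries were Ifltd1, 181038 bp away and at 0.0110 and 0.0206 RPKM in Dnmt1+/+ and Dnmt1-/-, and Rassf8, 125406 bp away and at 33.3 and 26.9. Next to Tuba3a were 4930417O13Rik, listed at 0 in both libraries, and Ltbr, 20529 bp away and at 26.2 and 34.0 RPKM. Ltbr encodes a receptor of the tumour necrosis factor receptor family. The log2 changes of Rassf8 and Ltbr were -0.31 and 0.37.

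As Dnmt1 copies methylation at CpG sites, the sequence before the transcription start was examined. For the Tuba3 genes, which moved together, and for Tuba1b, as a gene expressed in both libraries, the 250 bases before the RefSeq start are shown with CpG sites in capitals, 5′ to 3′ on the strand of the gene. The RefSeq sequences, from the GRCm38.p6 table, were placed in NCBIM37 by exact match, with 1 match each, at chr6:145564233-145564482 on the plus strand for Tuba3b, chr6:125236100-125236349 on the minus strand for Tuba3a and chr15:98764822-98765071 on the minus strand for Tuba1b. GENCODE places the starts of Tuba3b and Tuba1b inside these windows and that of Tuba3a outside its window.
Tuba3b: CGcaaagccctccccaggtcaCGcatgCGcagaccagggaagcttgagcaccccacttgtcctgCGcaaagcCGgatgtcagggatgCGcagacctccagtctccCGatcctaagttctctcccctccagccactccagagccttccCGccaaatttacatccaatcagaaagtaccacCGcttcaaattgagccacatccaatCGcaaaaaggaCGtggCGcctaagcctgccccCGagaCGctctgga
Tuba3a: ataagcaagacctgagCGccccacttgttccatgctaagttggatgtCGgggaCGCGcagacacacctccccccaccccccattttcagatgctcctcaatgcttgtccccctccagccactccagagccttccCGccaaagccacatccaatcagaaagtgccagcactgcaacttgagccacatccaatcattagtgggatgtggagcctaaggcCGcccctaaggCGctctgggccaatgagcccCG
Tuba1b: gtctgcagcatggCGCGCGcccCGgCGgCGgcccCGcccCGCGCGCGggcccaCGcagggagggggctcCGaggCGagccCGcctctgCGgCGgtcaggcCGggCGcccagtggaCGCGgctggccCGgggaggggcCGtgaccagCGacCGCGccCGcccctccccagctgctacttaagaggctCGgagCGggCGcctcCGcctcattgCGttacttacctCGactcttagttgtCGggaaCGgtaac
Tuba3b held 14 CpG sites in this window and Tuba3a 8, and Tuba1b held 35. The median of 32534 RefSeq promoter windows of the same length was 6 CpG sites, with quartiles of 2 and 16. The ratio of observed to expected CpG was 0.71 for Tuba3b, 0.40 for Tuba3a and 0.98 for Tuba1b, with a median of 0.38 over all promoters. Thus neither Tuba3 promoter stood at an extreme of CpG content, with 70.4% of promoters holding fewer CpG sites than Tuba3b and 56.7% fewer than Tuba3a. Both promoters aligned at 59.9% identity, and the longest stretch common to both was 33 bases. The motif CCAAT, counted with its reverse complement ATTGG, occurred 3 times in Tuba3a, 2 times in Tuba3b and not in these letters in Tuba1b. At least 1 copy was found in 33.8% of all promoters, and 3 or more in 2.78%. The GC box GGGCGG or CCGCCC, which overlaps CpG sites, occurred 1 time in Tuba3a, not in these letters in Tuba3b and 2 times in Tuba1b, and 33.0% of all promoters held it.

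Among the other members with a RefSeq promoter, CpG sites numbered 22 in Tubb2a, 21 in Tubb3, 20 in Tuba4a, 11 in Tuba1a and 4 in Tuba1c. The GENCODE starts of Tuba1a and Tubb3 also lie inside their windows. Tuba1c, with fewer CpG sites than either Tuba3 gene, was at 306 RPKM in the Dnmt1+/+ library, so that among these 8 genes the number of CpG sites did not order the levels. TATAAA, or TTTATA on the other strand, was found in the window of Tubb2a and in that of no other of these 8 genes, and in 12.3% of all promoters. Methylation of these sites was not analysed here. The promoters of Tubb2b and Tubb6 were not examined.

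**Figure D2:**
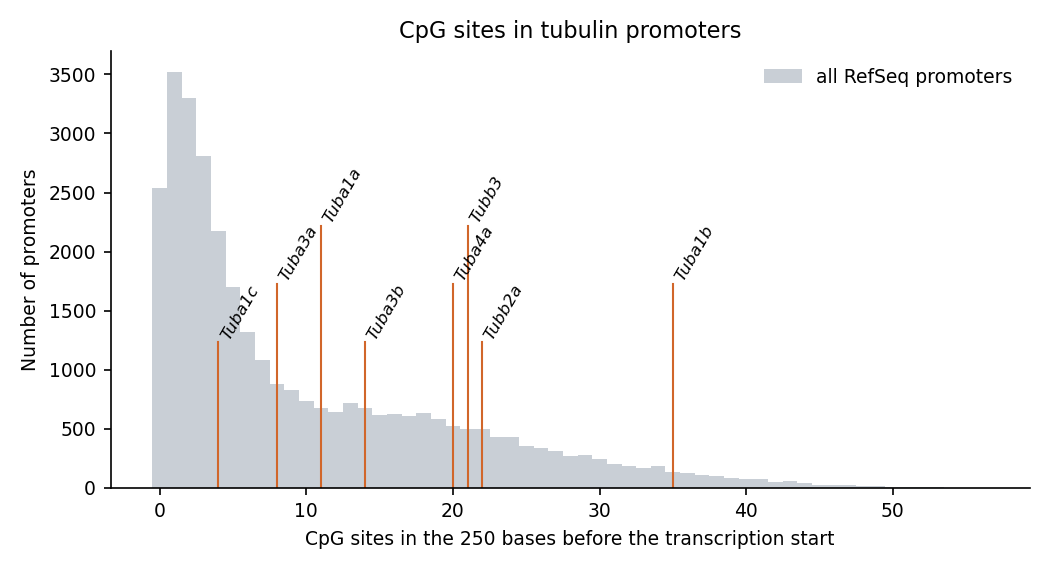
Number of RefSeq promoters (y axis) by the number of CpG sites in the 250 bases before the transcription start (x axis), as grey bars, with the 8 tubulin genes that could be examined as vertical lines whose heights only separate the names. Tuba1c has 4 CpG sites and Tuba1b 35, and Tuba3a and Tuba3b lie between them at 8 and 14.

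Tuba4a was the third gene past 2-fold. Its alpha-tubulin is unusual in that the tail is encoded without the final tyrosine that most alpha-tubulins carry. The gene has 4 exons on chromosome 1 (minus strand, 75211549 to 75215828). It was at 7.62 RPKM and at 24.0 RPKM in the Dnmt1-/- library, 3.15-fold higher, with a log2 change of 1.64. The entry shares its locus in the deposited table with Stk16, a kinase gene, which had 14.5 and 14.3 RPKM in Dnmt1+/+ and Dnmt1-/-. Whether the strand was used to divide reads between such entries is not stated, and its part in the value of Tuba4a was not tested. Atg9a and Dnajb2, the nearest named entries on either side, had log2 changes of -0.61 and -0.24.

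The genes of the Tuba1 clade lie together on chromosome 15 and were the most highly expressed alpha-tubulin genes in both libraries. Tuba1b (98761856 to 98764996) and Tuba1a (98780272 to 98783982) are on the minus strand and Tuba1c (98860322 to 98868536) on the plus strand, with 4 exons each. Tuba1a, whose mutations cause malformations of the brain in humans and mice, was at 640 and 702 RPKM. Tuba1b was at 587 and 838, and Tuba1c at 306 and 423, so that Tuba1a ranked first in Dnmt1+/+ and Tuba1b in Dnmt1-/-. Their log2 changes of 0.13, 0.51 and 0.47 were each above the median of all genes, and none was past 2-fold. Because so few windows tell these genes apart, the order of these genes is uncertain, and the part of read assignment in it was not tested. Summed, the clade was 1.28-fold higher in Dnmt1-/-. A further entry without a gene name at the locus of Tuba1b had 4.60 and 6.57 RPKM.

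**Figure D3:**
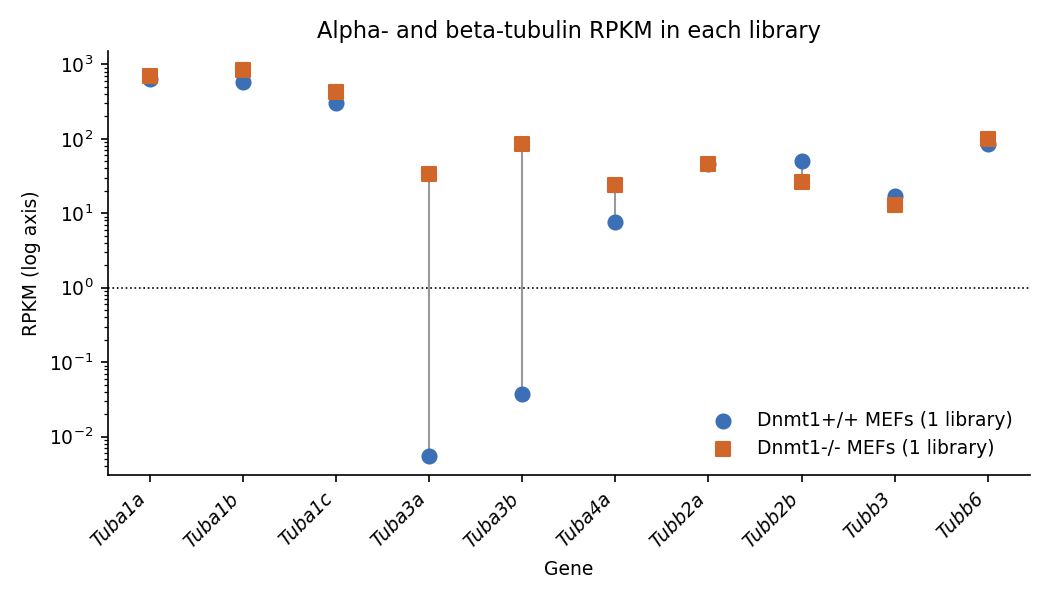
RPKM on a log axis (y axis) of each of the 10 tubulin genes (x axis) in the Dnmt1+/+ library (circles) and the Dnmt1-/- library (squares), with 1 library each and the dotted line at 1 RPKM. Tuba3a and Tuba3b go from below 0.1 RPKM to 33.7 and 85.5, whereas the other 8 genes stay between 7.62 and 838 RPKM.

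Of the beta-tubulin members, none was past 2-fold in either direction, against 8.47% of all genes kept higher and 10.9% lower. Tubb2b, a gene of neural progenitors and neurons with 4 exons on chromosome 13 (minus strand, 34218877 to 34222223), came closest. It went from 50.7 to 26.2 RPKM, which is 1.93-fold lower, with a log2 change of -0.95. At a threshold of 1.5-fold it was the 1 member counted as lower, against 23.7% of all genes kept, and 3 members were higher, against 14.1%. Its neighbour Tubb2a, 49000 bp away on chromosome 13 and 96.5% identical in its coding sequence, was at 45.7 and 46.5 RPKM, a log2 change of 0.02. The ratio of Tubb2a to Tubb2b thus went from 0.902 to 1.77. These genes share 712 windows exactly, and the part of read assignment in this ratio was not tested. With both genes summed the RPKM was 96.4 in Dnmt1+/+ and 72.7 in Dnmt1-/-. Tubb3, the beta-tubulin used as a marker of neurons, with 4 exons on chromosome 8 (plus strand, 125935324 to 125945915), was at 16.9 and 12.9 RPKM, with a log2 change of -0.39. Tubb6, a beta-tubulin that fibroblasts are known to express, was at 84.9 and 98.8 RPKM, a change of 0.22. Of the windows of Tubb3 and of Tubb6, 177 each matched another tubulin within 2 mismatches and none did so exactly.

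Tubulin genes outside the list were also read, since subunits are pooled in the cell. Tubb5 was the most highly expressed beta-tubulin gene, at 667 RPKM in Dnmt1+/+ and 923 in Dnmt1-/-, a log2 change of 0.47. Tubb4b, deposited under the older name Tubb2c, was at 101.4 and 122 RPKM. Tuba8 was at 0.0146 and 0.204 RPKM and stayed under the minimum of 1. Tubb1, the beta-tubulin of platelets, was listed at 0 in both libraries, and Tubal3 and Tubb4a were below 0.1 RPKM in both, all 3 with status NOTEST. The gamma-, delta- and epsilon-tubulin genes Tubg1, Tubg2, Tubd1 and Tube1 had log2 changes between 0.15 and 0.56. Thus none of the 6 other tubulin genes kept was past 2-fold, against 8.47% of all genes kept higher and 10.9% lower. All 6 lay above the median of all genes, with a median log2 change of 0.35.

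The sums over each family are less affected by shared reads than the single genes. Over the 7 alpha-tubulin entries with status OK, the summed RPKM was 1541 in Dnmt1+/+ and 2106 in Dnmt1-/-, a ratio of 1.37. Over the 6 beta-tubulin entries it was 966 and 1229, a ratio of 1.27. Without Tubb5 the ratio of the beta-tubulins was 1.02, and without both Tubb5 and Tubb4b, over Tubb2a, Tubb2b, Tubb3 and Tubb6 alone, it was 0.930. The summed alpha-tubulin RPKM was 1.59 times that of the beta-tubulins in Dnmt1+/+ and 1.71 times in Dnmt1-/-. Tuba3a and Tuba3b together made up 0.0027% of the summed alpha-tubulin RPKM in Dnmt1+/+ and 5.66% in Dnmt1-/-. They accounted for 21.1% of the difference between the sums, and the Tuba1 genes for 76.0%. The Tuba1 share itself went from 99.5% to 93.2%, as Tuba1a went from 41.5% to 33.3% while Tuba1b was at 38.1% and 39.8% and Tuba1c at 19.9% and 20.1%. Tubb5 made up 69.0% of the beta-tubulin sum in Dnmt1+/+ and 75.1% in Dnmt1-/-. Tubb2b went from 5.24% to 2.13%.

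**Figure D4:**
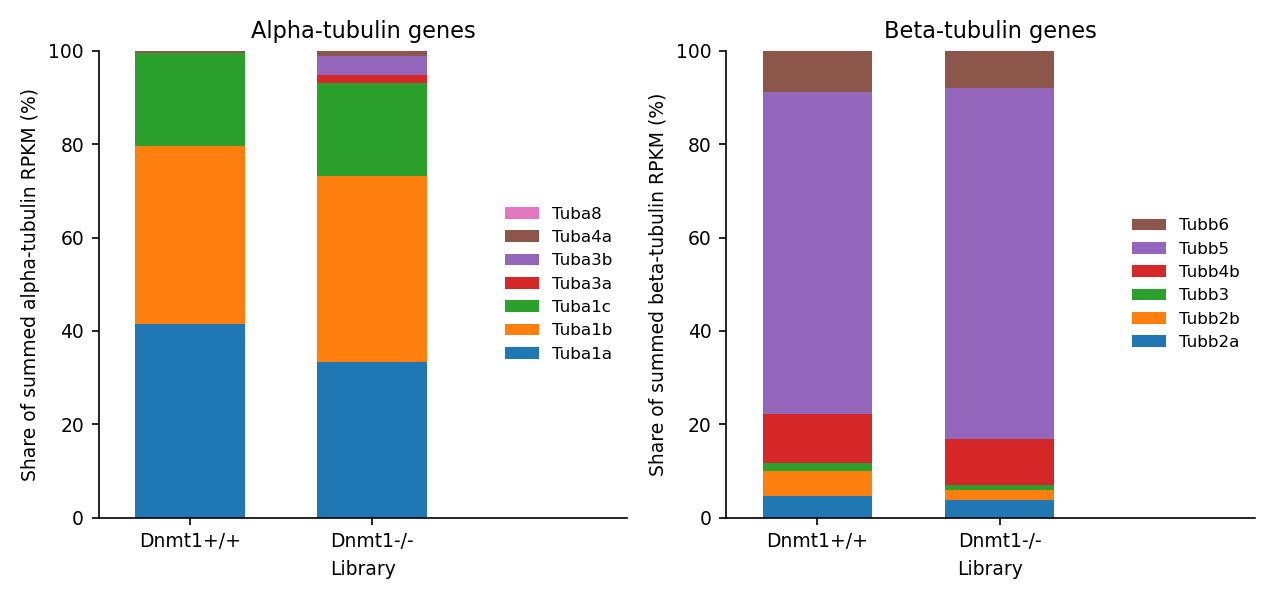
Share of the summed RPKM (y axis, in %) contributed by each alpha-tubulin gene (left) and each beta-tubulin gene (right) in the Dnmt1+/+ and the Dnmt1-/- library (x axis). Tuba3a and Tuba3b are too small to see in Dnmt1+/+ and together take 5.66% in Dnmt1-/-, and Tubb5 takes 69.0% and 75.1% of the beta-tubulin sum.

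The other genes of the microtubule system were read from lists of their roles. Nucleation starts at the gamma-tubulin ring complex. None of its 8 genes examined was past 2-fold, against 8.47% of all genes kept higher and 10.9% lower. The median log2 change of the complex was -0.10. By the mean of both libraries its highest levels were those of Tubgcp3, at 37.9 and 40.2 RPKM, and Mzt2, at 18.4 and 19.0. The median was 0.04 relative to that of all genes. New tubulin chains are folded by prefoldin, the CCT chaperonin and the tubulin cofactors. None of the 20 genes found of this list was past 2-fold, against the same shares of all genes kept. Their median was -0.06, or 0.08 relative to that of all genes. Cct5 and Cct2, subunits of CCT, had the highest levels, with Cct5 at 590.5 and 515.5 RPKM and Cct2 at 443 and 396. Vbp1, a prefoldin subunit, had the largest change of the list, -0.77.

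Of the enzymes that modify tubulin, 15 of the 26 entries found passed the filter. Past 2-fold were 1 higher and 1 lower gene, near the 8.47% and 10.9% of all genes kept, and the median was -0.31. Ttll11, a polyglutamylase and the higher gene, went from 0.406 to 2.09 RPKM and passed the filter only through the Dnmt1-/- library. Svbp, the partner that the detyrosinating vasohibins need, was at 25.5 and 12.4 RPKM in Dnmt1+/+ and Dnmt1-/-, a log2 change of -1.03, which was not past 2-fold with a pseudocount of 1 or relative to the all-gene median. Short of 2-fold were Vash2, a vasohibin (-0.96), Agbl5, a deglutamylase (-0.95), and Atat1, the alpha-tubulin acetyltransferase (-0.84). Ttl, which puts the terminal tyrosine back on alpha-tubulin, was at 7.11 and 5.70. The most highly expressed entries of this list were that of Ttll3, which is joined with the actin-related gene Arpc4 and so says little of Ttll3 itself, at 44.9 and 70.3 RPKM, and Ttll12, at 33.1 and 28.6.

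Of the microtubule-associated proteins 18 of 22 entries were kept, and none was more than 2-fold higher, against 8.47% of all genes kept. Lower by more than 2-fold were 5, against 10.9% of all genes kept, namely Map2, Map1a, Dclk2, Ckap5 and Map9. Map2, a dendritic microtubule protein, went from 7.98 to 1.63 RPKM (-2.22) and Map1a from 6.58 to 2.09 (-1.61). Dclk2, a doublecortin-like kinase, went from 2.08 to 0.904 (-1.11) and Ckap5, a microtubule polymerase of the spindle, from 53.6 to 25.6 (-1.06). Map9 lies close to the threshold, at -1.03. Both Dclk2 and Map9 passed the filter only through the Dnmt1+/+ library. With changes taken relative to the all-gene median, Map2 and Map1a were the 2 genes past 2-fold. Map4, the main microtubule-associated protein of non-neuronal cells, was the most highly expressed, at 68.5 and 78.3 RPKM. Among the 11 genes kept that depolymerise or sever microtubules, only Stmn2 was past 2-fold, against 10.9% of all genes kept lower. It went from 2.19 to 0.0108 RPKM and passed the filter only through the Dnmt1+/+ library. By the mean of both libraries the highest levels of this list were those of Stmn1, at 308 and 168 RPKM (-0.88), and Kif2a, at 34.4 and 28.3.

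**Figure D5:**
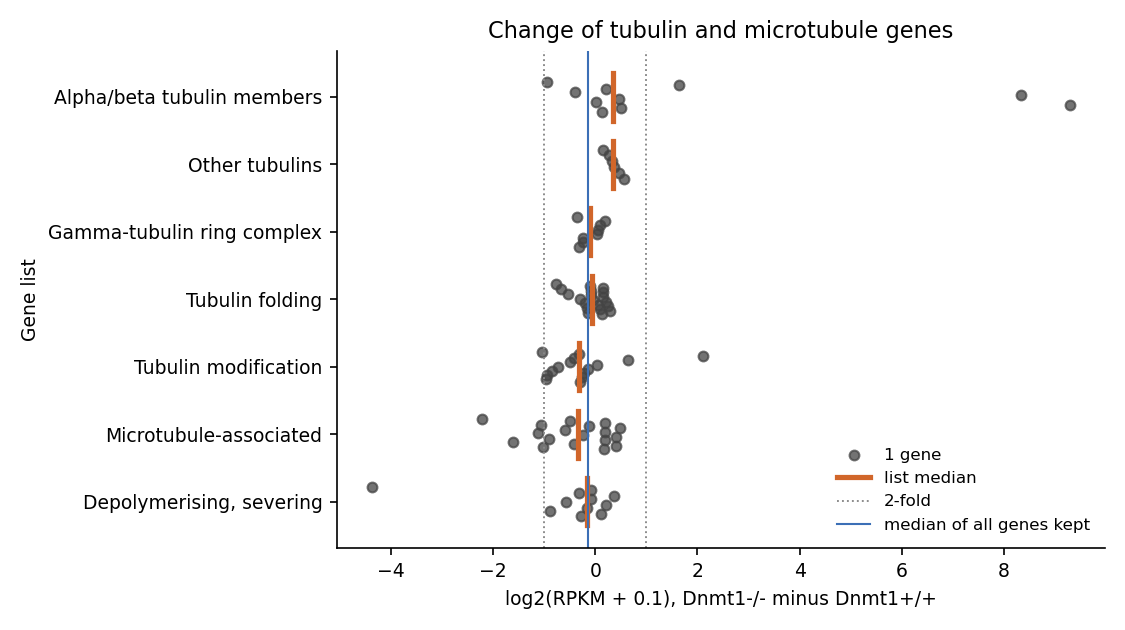
Difference in log2(RPKM + 0.1) between the Dnmt1-/- and Dnmt1+/+ libraries (x axis) for the kept genes of the 10 tubulin members and 6 lists of microtubule genes (y axis), with 1 point per gene, the list median in orange and the median of all genes kept, -0.14, in blue. Tuba3a and Tuba3b lie at 8.32 and 9.29, apart from all other points, and Stmn2 lies lowest.

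As Tubb3, Tubb2b, Map2 and Stmn2 are known from neurons and the Tuba3 genes from the testis, markers of these cells were read beside them. Of 13 neuron markers, 11 were under 1 RPKM in both libraries, and Rbfox3, Snap25 and Elavl4 were listed at 0 in both. The summed RPKM of the list was 4.1 in Dnmt1+/+ and 1.85 in Dnmt1-/-. Stmn2 is itself a marker of this list, so the sum is no separate comparison for Stmn2. It went from 2.19 to 0.0108 RPKM, which made up most of the difference between the sums, and was above 1 RPKM only in Dnmt1+/+. Gap43, the only marker above 1 RPKM in both libraries, was at 1.62 and 1.42. Of 13 male germ cell markers found, 11 were under 1 RPKM in both libraries, and Tnp1, Acrv1 and Ldhc were listed at 0 in both. Ddx4 was at 0.00901 and 0.0218 RPKM, and Dazl was listed at 0 in Dnmt1+/+ and at 0.119 in Dnmt1-/-. Sycp1 and Tnp2, listed at 0 in Dnmt1+/+, were at 0.0167 and 0.0305 in Dnmt1-/-. Lower in Dnmt1-/- were Sycp3 (0.338 and 0.0543), Prm1 (0.354 and 0.126), Prm2 (0.0738 and 0) and Odf1 (0.028 and 0). The summed RPKM of the list was 5.21 and 17.95, of which Hspa1l, a heat shock gene, made up 4.41 and 14.3, and Tex101, a testis antigen, was listed at 0 and at 3.31. Both Tex101 and Hspa1l, the 2 markers of this list that were kept, were past 2-fold higher, against 8.47% of all genes kept. Tex101 passed the filter only through the Dnmt1-/- library. The part of these markers in the Tuba3 values was not tested.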

How the data were processed

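Libraries were prepared from total RNA with a strand-specific mRNA protocol and read as 50 bp single-end reads, with 1 library per genotype. Per the labels and the methods of the study, the RPKM values that the authors deposited came from Cuffdiff, after alignment by Tophat (genome build mm9) and assembly by Cufflinks. Versions, scaling between the libraries and the use of strand in assigning reads are not given in the sources used here. Locus starts, which count from 0, were raised by 1. Changes were differences of log2(RPKM + 0.1), and genes past a difference of 1 were called more than 2-fold changed. The calculation was run on simulated data without noise, as a check of the code. This run gives no error rate and changed no genes at low RPKM. No p-value was computed. The deposited RPKM values carry no counts, and the reads behind a gene were not estimated. The members and lists were chosen with earlier results of these data known, as were the other gene lists. Genes named are all tubulins, the genes past 2-fold (up to 4, largest first) and the 2 highest of each list, the nearest named neighbours and Dnmt1. Vbp1, Vash2, Agbl5, Atat1, Ttl, Map9, Tubb2a-ps2 and the single markers were chosen after their values were seen. Windows of 50 bases were compared between GENCODE vM1 transcripts, the longest of each tubulin gene. Promoters matched for 8 of 10 members. Proteins were not examined, and a few items, among them 1 ubiquitously expressed gene that the rule would name, are not reported here. Alternatives were other pseudocounts (1 and 0.01), subtraction of the median change, no filter or a mean RPKM of at least 1, a 1.5-fold threshold and sums of paralogs. Python 3.11.15, numpy 2.4.6, pandas 2.3.3 and matplotlib 3.10.9 were used.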

Additional observations from a re-analysis of the deposited data

How the results depend on the processing

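Over 33 results, 166 values were recomputed under the alternatives, of which 154 stayed within 1.5-fold of the first value. Not all of the 166 could move. The filter settings leave the change of a single member as it was. Subtraction of the median, -0.14, shifts each log2 change by less than the 1.5-fold margin. The 154 is therefore no measure of robustness. Among the 154, 2 small medians changed sign after subtraction of the median change. These were the gamma-tubulin ring complex, from -0.10 to 0.04, and tubulin folding, from -0.06 to 0.08. The count of members more than 2-fold higher was 3 under every pseudocount, filter and scaling tried, and 2 of 9 entries where Tuba3a and Tuba3b were summed. The count of lower members was 1, Tubb2b, at a threshold of 1.5-fold. The beta-tubulin ratio of 1.27 reversed to 0.930 over the 4 listed members, since this leaves out Tubb5 and Tubb4b, which both had higher RPKM in the Dnmt1-/- library. Without the filter on low RPKM, 1 other tubulin gene, Tuba8, was counted as higher and 2 genes of the depolymerising and severing list as lower. Of the modifying enzymes 0 were lower with a pseudocount of 1 and after subtraction of the median change. Of the microtubule-associated proteins 3 and 2 were lower under these settings. The single changes of Tuba3a and Tuba3b moved with the pseudocount. No paired analysis was possible because each genotype has 1 library, and leaving out a library leaves no comparison. The reads behind each gene were not estimated, so the error of low RPKM values is not given.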

Other observations

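Tubb2a-ps2, a pseudogene of Tubb2a on chromosome 12 from 11889002 to 11889705, went from 15.3 to 4.63 RPKM between the Dnmt1+/+ and Dnmt1-/- libraries, a log2 change of -1.70. It was not part of the lists above and was chosen after its value was seen. Its sharing of reads with Tubb2a and Tubb2b was not tested. Prph, the gene of the intermediate filament protein peripherin next to Tuba1c, was at 0.435 and 0.114 RPKM, a log2 change of -1.32. Cidea, next to Tubb6, was at 0.0965 RPKM in Dnmt1+/+ and listed at 0 in Dnmt1-/-. Prph and Cidea stayed under the minimum of 1 RPKM and were not kept. The other neighbours outside the family, Lmbr1l, Bphl, Psmg4, Def8 and Afg3l2, had log2 changes between -0.52 and 0.39. Mc1r, with status NOTEST at 0.0216 and 0.0151 RPKM, was not kept.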
